A study of Bos taurus with 24 samples.

Results

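The follicles with the most and the least immunoglobulin transcript were compared across all other genes measured. The series holds 24 two-colour cDNA arrays, each set with RNA of 2 follicles, and 16 follicles in all, each on 3 arrays. They were the largest follicles of 16 heifers, 8 to 12 mm across, and no treatment, breed, age or stage is given for any of them. The groups were chosen by the measured level of IGHG1, the constant region of the IgG heavy chain. The 5 highest (C26, C32, 26, 33 and 27) are called rich here, the 5 lowest (C13, 8, 46, H893 and 31) poor, and the 6 between them (J980, C35, 861, C12, C10 and C22) belong to neither. These groups come from measured values and not from labels, so the immunoglobulin genes are described without a test. The follicles were taken as 1 per animal, so no spread within an animal is known.

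A level is a log2 value relative to the mean of the 16 follicles, from a fit of follicle and dye effects to the log ratios of the 24 arrays. Its median standard error, from array error over 3 arrays, was 0.13. The ratio was taken as Cy5 over Cy3, which the files do not state. If it is Cy3 over Cy5, the sign of each level turns and the follicles called rich are the poor ones, while a difference of rich minus poor keeps its sign. With natural instead of base 2 logarithms all differences would keep their proportions. Arrays of log ratios give no absolute amounts, so whether a marker is present or absent in all follicles cannot be read from them. RNA came from follicle tissue as a bulk sample, and more cells of a type cannot be told apart from more RNA per cell.

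Immunoglobulins are made by B cells and, in much larger amounts, by plasma cells. IGHG1 and IGHM encode constant regions of IgG and IgM heavy chains, and JCHAIN encodes the small protein that links immunoglobulin units into polymers and is a marker of antibody-secreting cells. MHC class II molecules present peptides to helper T cells and are carried by B cells, dendritic cells and macrophages. In the ovary, leukocytes lie mainly in the theca and stroma around the follicle, macrophages take part in clearing atretic follicles, and the granulosa layer inside the basal lamina holds few immune cells.

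IGHG1, the average of 61 array features, stood at 1.73, 1.11, 0.93, 0.54 and 0.29 in the rich follicles and at -0.68, -0.80, -0.84, -0.94 and -1.12 in the poor follicles, each in the order of follicles given above. The range within the rich group was wide, and follicle 27 at 0.29 differed from the first follicle outside it, J980 at 0.25, by less than the standard error. At the other end C13 at -0.68 was the last inside and C22 at -0.34 the first outside. IGHM, from 19 features, stood at 1.17, 0.89, 0.60, 0.38 and 0.18 in the rich follicles and at -0.64, -0.35, -0.70, -0.59 and -0.40 in the poor follicles. JCHAIN, from 1 feature, stood at 1.14, 0.72, 0.23, 0.51 and 0.051 in the rich follicles and at 0.0062, -0.15, -0.73, -0.96 and -0.64 in the poor follicles. Neither gene overlapped between the groups, but for JCHAIN the gap between follicle 27 and C13 was smaller than its standard error. Rich follicles exceeded poor ones by 1.79 for IGHG1, a ratio of 3.46 in linear terms if the logs are base 2. The difference was 1.18 for IGHM, 1.22 for IGCGAMMA, 1.02 for JCHAIN and 0.98 for LOC524810, a heavy chain variable region gene by its RefSeq synonym. Of 55 IGHG1 features with enough values, 46 did not overlap between the groups, which were themselves picked by the average of the IGHG1 features. Differences of the 55 ran from -0.020 to 3.16.

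**Figure D1:**
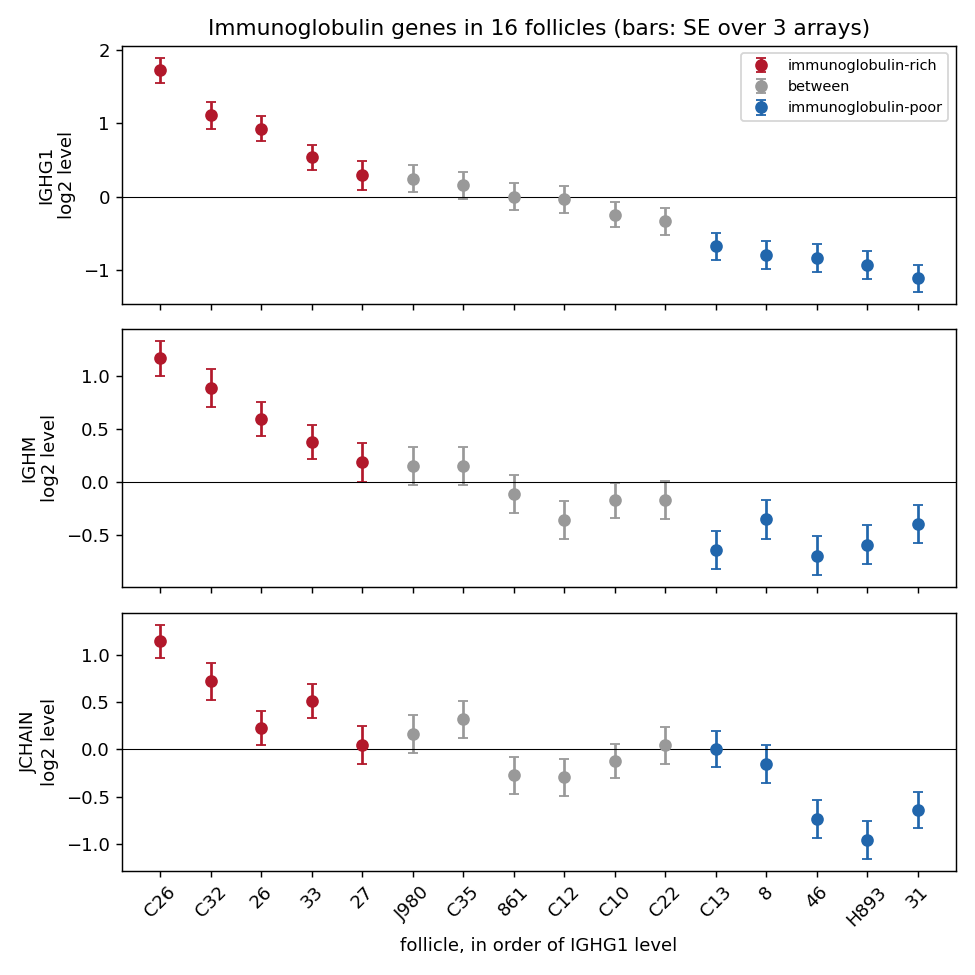
Log2 levels of IGHG1, IGHM and JCHAIN (vertical axes) in each of the 16 follicles, ordered by IGHG1 from left to right; points are levels from 3 arrays each and bars their standard errors. IGHG1 runs from 1.73 in C26 to -1.12 in follicle 31 without a gap between follicle 27 and J980. The 5 rich follicles lie above the 5 poor ones in all 3 panels, which for IGHG1 is fixed by the choice of groups.

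Features outside the named immunoglobulin genes that tracked IGHG1 almost exactly were set aside before genes were averaged. With a correlation coefficient over 0.95 across the 16 follicles there were 70 such features, of which 49 had no gene symbol and 2 had several. The remaining 19 carried 19 different genes, among them PECAM1, an endothelial adhesion protein (difference 2.48), CTSH, a lysosomal protease (2.10), FABP4, a fatty acid binding protein (0.93), and RPL7, a ribosomal protein (2.33). The others were ATP5F1A, CARS1, CCPG1, CNOT1, EPHX1, EWSR1, GLYCAM1, HEXD, ORMDL2, PLPBP, PRMT7, SLC35D2, SLCO2B1, ZC3H7A and ZNF280B. Of the 19 genes, 9 were also measured by other features, and the averages of those features had coefficients between -0.42 and 0.73. For RPL7 the other features gave a difference of 0.10 and for GLYCAM1 -0.13, against 2.74 for the feature set aside. The smallest coefficient over the limit was 0.951 and the largest under it 0.949, and 44 further features lay between 0.90 and 0.95.

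The features set aside were concentrated in part of the array's identifiers, which are made of 3 numbers. The second number runs to 24, and it was 21 to 24 in 85.7% of the features set aside, in 96.5% of the immunoglobulin heavy chain features and in 17.2% of all features. Among features that are not immunoglobulin genes, 6.57% of those numbered 21 to 24 and 0.276% of those numbered 1 to 20 had a coefficient over 0.8 with IGHG1. The files do not say what the number stands for, and its part in the results below was not tested beyond the values given with each.

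Of 9016 other genes, 38 (0.421%) differed between rich and poor follicles in limma's moderated test with Benjamini-Hochberg adjustment at 0.05. The direction was higher in rich follicles for 32 (0.355%) and lower for 6 (0.0665%). In all 38 the groups of 5 did not overlap, as was so for 496 genes tested (5.5%), 252 (2.8%) higher and 244 (2.71%) lower. At an unadjusted p under 0.05, 825 genes (9.15%) were higher and 812 (9.01%) lower. These calls take follicle levels as independent. Only 2 of the 24 arrays set a rich against a poor follicle, while 3 joined rich follicles to each other and 3 poor ones, so that array error is shared within the groups. In a mixed model on the arrays that holds this error, the groups gave 0 calls (0%), with a lowest adjusted p of 0.0891 and 796 genes (8.83%) under an unadjusted p of 0.05. This model also lacks limma's moderation, without which limma called 13 higher and 4 lower. The 2 changes were not tested apart. The same model with the IGHG1 level of all 16 follicles in place of the groups called 44 genes (0.488%), 43 higher with IGHG1 (0.477%) and 1 lower (0.0111%), and 694 (7.7%) had an unadjusted p under 0.05. Without C26 and its arrays it called 14 higher and 0 lower. Of the 44, 16 were among the 38. The 2 tests share the 24 arrays and the measured IGHG1 levels, so passing both is not independent support. The model takes the IGHG1 level as known, although its standard errors ran from 0.17 to 0.19. Array error shared by IGHG1 and another gene was not modelled.

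Calls also depended on which features entered. A feature with a second number of 21 to 24 was present for 21.3% of the genes tested, for 60.5% of the 38 and for 93.2% of the 44. With features numbered 1 to 20 alone, limma called 0 of 7911 genes (0%), although 1369 (17.3%) had an unadjusted p under 0.05, with 7.94% higher and 9.37% lower. AKR1C4 (1.18), PAK2 (0.77) and DNAI7 (-0.37), called in the main test, kept the same differences here and just missed the threshold (limma, adjusted p = 0.0524 for each). The mixed model on the IGHG1 level then called 1 gene (0.0126%), BOLA-DRB3, with 6.69% under an unadjusted p of 0.05. With features numbered 21 to 24 alone limma called 92 (5.05%) of 1822 genes, 78 higher (4.28%) and 14 lower (0.768%). The mixed model on the IGHG1 level then called 74 (4.06%), and with groups it called 0 (0%). At an unadjusted p under 0.05, limma had 15.6% of these genes higher and 7.52% lower. There were 719 genes with features of both kinds. Of these, 38 had a difference over 0.5 in features numbered 21 to 24 (median 0.72), and their median in features numbered 1 to 20 was 0.096, with 6 over 0.5. Chosen the other way, 21 genes had a difference over 0.5 in features numbered 1 to 20 (median 0.64), with a median of 0.26 and 6 over 0.5 in the others. Follicle J980, in neither group, stood apart from the rest with ISG15 at 3.11 and INHBA at -2.69, and without its 3 arrays 6 genes were called higher and 1 lower. Leaving out single follicles gave 0 genes called higher without C32 or 31 and 3 to 5 without C26, 33, C13, 46 or H893. The number was 32 without follicle 26, 49 without 27 and 130 without 8. Leaving out single arrays moved it between 2 without that of C10 and 26 and 101 without that of 8 and C32.

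MHC class II genes had higher values in the rich follicles, and 1 of them, BOLA-DRB3, passed limma's test. BOLA-DRB3, a class II beta chain, stood at 0.81, 0.69, 0.30, 0.40 and -0.18 in the rich follicles and at -0.30, -0.36, -0.46, -0.48 and -0.37 in the poor follicles. Follicle 27 was the lowest of the rich group and still above all 5 poor follicles. The difference was 0.80 ± 0.16 (SE; limma, adjusted p = 0.0367), and along the IGHG1 level it was 0.82 ± 0.12 over the same span (mixed model, adjusted p = 0.004). Its 5 features had a median pairwise coefficient of 0.88, and all 5 were higher in the rich follicles. The difference was 0.81 from the 3 features numbered 21 to 24 and 0.78 from the 2 numbered 1 to 20. Those 2 alone passed along IGHG1 (mixed model, adjusted p = 0.0144) and not between the groups (limma, adjusted p = 0.0524). Of 67 alternative fits, 41 called BOLA-DRB3.

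BOLA-DRA, the class II alpha chain that pairs with it, stood at 1.23, 1.24, 0.010, 0.31 and 0.019 in the rich follicles and at -0.0038, -0.39, -0.83, -0.46 and -0.63 in the poor follicles. C26 and C32 were far above the rest, and follicles 26, 27 and C13 lay close together around 0, so that the groups came near to overlapping. The groups differed by 1.02 ± 0.26 (limma, adjusted p = 0.086), which did not pass, and the IGHG1 level passed (mixed model, adjusted p = 0.0131). One feature numbered 21 to 24 gave 0.97 and one numbered 1 to 20 gave 0.99. BOLA-DQA1, the alpha chain of the other classical class II molecule, stood at 1.21, 0.94, 0.43, 0.37 and -0.60 in the rich follicles and at -0.46, -0.63, -0.66, -0.39 and -0.67 in the poor follicles. Follicle 27 lay among the poor follicles, the difference of 1.03 ± 0.26 missed the threshold (limma, adjusted p = 0.086), and the IGHG1 level passed (mixed model, adjusted p = 0.03). Both its features were numbered 21 to 24.

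CD74, the invariant chain that guides class II molecules to the endosome, stood at 0.49, 0.53, 0.24, 0.22 and -0.14 in the rich follicles and at -0.13, -0.36, -0.24, -0.29 and -0.32 in the poor follicles. The groups overlapped in follicle 27, and the difference of 0.54 ± 0.12 just missed the threshold (limma, adjusted p = 0.0524), while the IGHG1 level passed (mixed model, adjusted p = 0.0116). Its 5 features disagreed. The 2 features numbered 21 to 24 gave a difference of 1.08 and the 3 numbered 1 to 20 gave 0.15, and 1 of those was lower in the rich follicles. RFXANK, a subunit of the factor that switches class II genes on, was higher by 0.41 ± 0.074 (limma, adjusted p = 0.0294) and was named after its value was seen. Its 3 features gave 0.82, 0.42 and -0.0013.

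Of 15 measured genes of class II presentation, 12 had a difference above 0, and the median was 0.33, where all genes had -0.0088. Limma called 1, BOLA-DRB3, and the mixed model on the IGHG1 level called 4, with BOLA-DRA, BOLA-DQA1 and CD74. At an unadjusted p under 0.05, 7 were higher and 1 lower, where 9.15% of all genes were higher and 9.01% lower. The groups did not overlap for 4 that were higher and 1 that was lower, where all genes had 2.8% and 2.71%. The lower one was BOLA-DOA, a chain of a class II molecule that modulates peptide loading, at -0.28 ± 0.082 (limma, adjusted p = 0.107), named after its value was seen, and it was 0.073 without the array of 31 and C13. The median was 0.81 over 7 genes with features numbered 21 to 24 and 0.21 over 12 with features numbered 1 to 20. B2M, the light chain of MHC class I, differed by 0.45 ± 0.14 (limma, adjusted p = 0.118) and passed on the IGHG1 level (mixed model, adjusted p = 0.0366). Its feature numbered 21 to 24 gave 0.81 and its feature numbered 1 to 20 gave 0.092. The class I list had a median of 0.064 over 12 genes with 0 limma calls and 1 higher at an unadjusted p under 0.05, and its next members by p were PSMB8, an immunoproteasome subunit, at 0.19 ± 0.094 and PSME1, a proteasome activator subunit, at 0.22 ± 0.11.

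**Figure D2:**
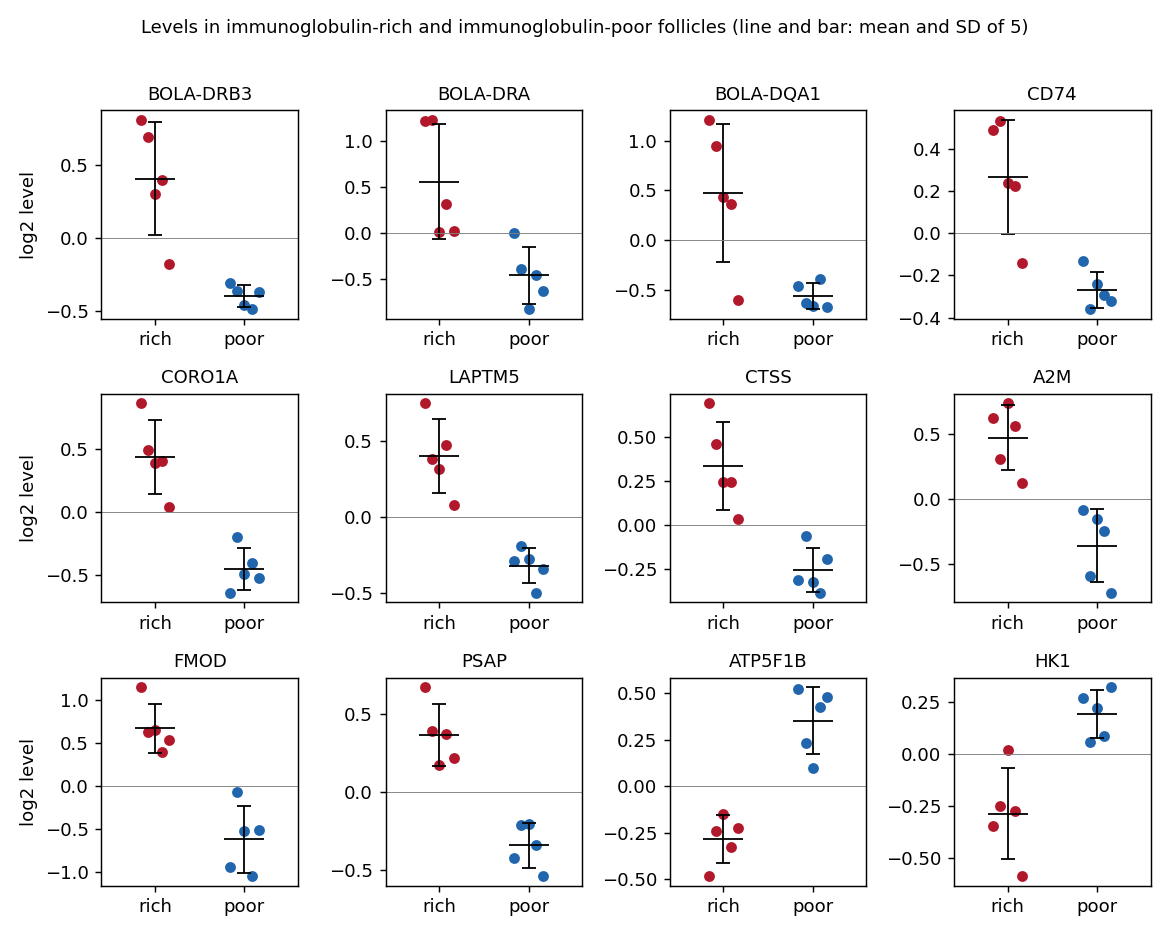
Log2 levels (vertical axes, each with its own scale) of 12 genes in the 5 immunoglobulin-rich follicles, left, and the 5 immunoglobulin-poor follicles, right; points are follicles, and the line and bar are their mean and SD. BOLA-DRB3 averaged 0.40 ± 0.39 in the rich and -0.39 ± 0.08 in the poor follicles, and of the 12 genes only BOLA-DQA1 and CD74 overlap.

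Most genes on the list of macrophages and other myeloid cells had higher values too, and 2 of 26 passed limma's test. CORO1A, an actin-binding protein of leukocytes, stood at 0.86, 0.49, 0.38, 0.40 and 0.039 in the rich follicles and at -0.64, -0.20, -0.49, -0.40 and -0.52 in the poor follicles. LAPTM5, a lysosomal membrane protein of blood cells, stood at 0.75, 0.38, 0.32, 0.47 and 0.079 in the rich follicles and at -0.29, -0.19, -0.28, -0.49 and -0.34 in the poor follicles. Neither overlapped between the groups, and follicle 27 was the lowest rich follicle in both. CORO1A differed by 0.89 ± 0.15 (limma, adjusted p = 0.026; IGHG1 level in the mixed model, adjusted p = 0.0125). LAPTM5 differed by 0.72 ± 0.13 (limma, adjusted p = 0.0313; mixed model, adjusted p = 0.0337). CORO1A rests on 1 feature numbered 21 to 24 and LAPTM5 on 1 numbered 1 to 20, which among such features alone did not pass (limma, adjusted p = 0.0698). CTSS, the protease that removes the invariant chain in antigen-presenting cells, averaged 0.34 ± 0.25 in the rich follicles and -0.25 ± 0.13 in the poor follicles (SD, n = 5 each; limma, adjusted p = 0.0524), from 1 feature numbered 21 to 24. FCER1G, a signalling chain of Fc receptors, stood at 0.77, 0.45, 0.095, 0.15 and -0.12 in the rich follicles and at -0.18, -0.22, -0.28, -0.29 and -0.16 in the poor follicles. Its groups did not overlap, with a difference of 0.49 ± 0.13 (limma, adjusted p = 0.0903), and it passed on the IGHG1 level (mixed model, adjusted p = 0.0329).

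Of 26 measured genes of this list 23 were above 0, with a median of 0.31. Those below 0 were CD14 (-0.096), ITGAM (-0.022) and S100A8 (-0.0045), and FCGR3A was at 0.0082, all named after their values were seen. Limma called 2, CORO1A and LAPTM5, both higher and neither confined to myeloid cells. At an unadjusted p under 0.05, 13 were higher and 0 lower, where 9.15% of all genes were higher. The groups did not overlap for 6, all higher, where 2.8% of all genes were higher without overlap. The mixed model with groups, which called none after adjustment, gave 9 higher and 0 lower at an unadjusted p under 0.05. Of all 9016 genes it gave 397 higher and 399 lower. The median was 0.31 over 23 genes with features numbered 1 to 20, with 11 higher at an unadjusted p under 0.05 where all such genes had 7.94%, and 0.33 over 5 genes with features numbered 21 to 24.

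Other genes of B and plasma cells gave no call. CD79A, the signalling chain of the B cell receptor, stood at 0.15, -0.053, -0.71, -0.11 and -0.50 in the rich follicles and at 0.45, 0.23, 0.70, 0.45 and 0.61 in the poor follicles. All 5 poor follicles were higher than all 5 rich ones, a difference of -0.73 ± 0.23 that did not pass (limma, adjusted p = 0.13; lower by 0.33 ± 0.20 along the IGHG1 level, mixed model, adjusted p = 0.746). Without the array of C10 and 26 it was 0.080. BLNK, an adaptor of B cell receptor signalling, stood at -0.77, -0.56, 0.060, 0.54 and -0.59 in the rich follicles and at 0.45, -0.26, 0.80, 0.92 and 0.66 in the poor follicles. It overlapped, at -0.78 ± 0.26 (limma, adjusted p = 0.151), and it was 0.64 without the dye term. CD22, a B cell inhibitory receptor, differed by -0.19 ± 0.090. Of 10 genes of this list measured beyond the immunoglobulins and JCHAIN, 5 were above 0, the median was 0.016, and limma and the mixed model on IGHG1 called 0. At an unadjusted p under 0.05, 0 were higher and 2 lower by limma and 0 were higher or lower by the mixed model on IGHG1. Of all 9016 genes that model had 353 higher and 341 lower. The plasma cell genes among them were named after their values were seen. CD38, a surface enzyme of plasma and other cells, stood at 0.76, 0.51, 0.038, -0.26 and 0.22 in the rich follicles and at -0.56, 0.52, -0.74, -0.29 and -0.57 in the poor follicles. The groups overlapped, and the difference was 0.58 ± 0.30 (limma, adjusted p = 0.308). MZB1, a helper of immunoglobulin assembly, differed by 0.062 ± 0.084, PRDM1, the regulator of plasma cell fate, by 0.061 ± 0.13 and SDC1, a plasma cell and epithelial proteoglycan, by -0.029 ± 0.060. The T and NK cell list had a median of 0.17 over 17 genes, 14 of them above 0 where 47.8% of all genes were, with 0 calls by limma or by the mixed model on IGHG1. At an unadjusted p under 0.05, 4 were higher and 1 lower, where all genes had 9.15% higher and 9.01% lower. Its members of smallest p were LCK (0.38 ± 0.13) and CD3G (0.44 ± 0.17), of T cell receptor signalling, and ZAP70 (-0.17 ± 0.064).

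**Figure D3:**
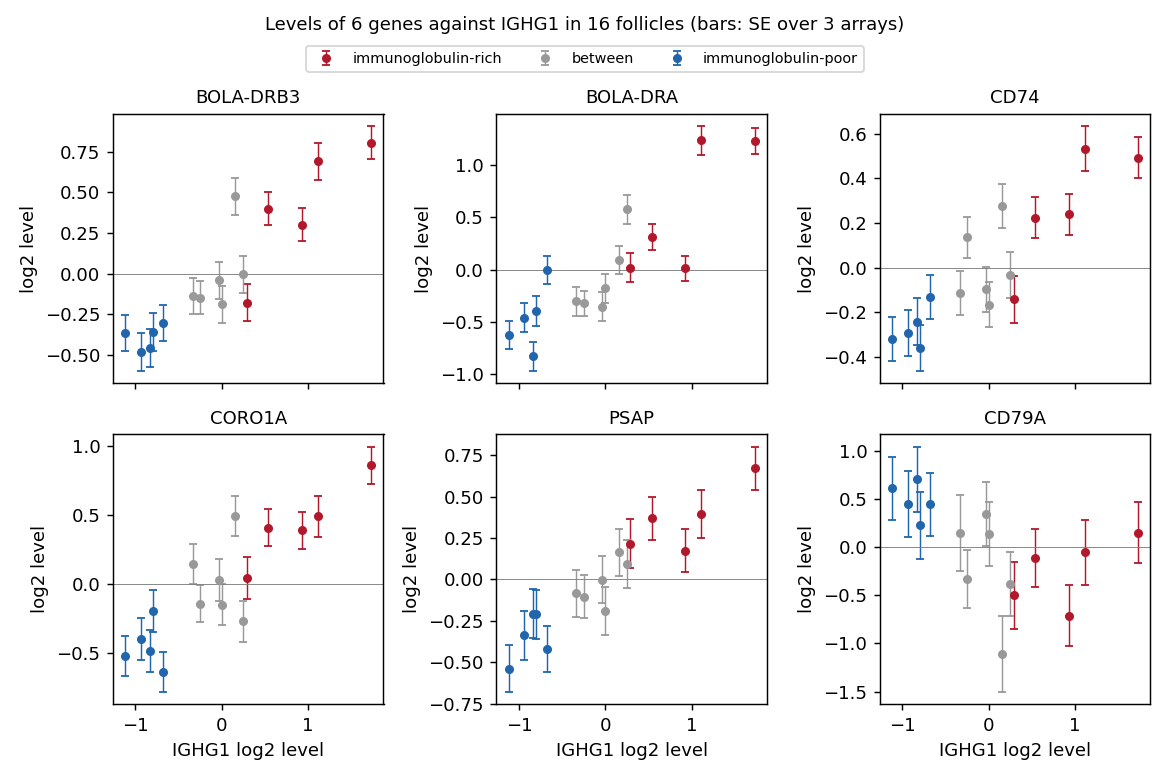
Log2 levels of 6 genes (vertical axes) against the IGHG1 log2 level (horizontal axis) in the 16 follicles; points are follicles coloured by group and bars are standard errors over 3 arrays. BOLA-DRA stands at 1.23 in C26 and 1.24 in C32, the highest of the 16, while CD79A is at 0.15 in C26 and between 0.23 and 0.70 in the 5 poor follicles.

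Complement and related protein genes had higher values in the rich follicles in part, and 1 of 21, A2M, passed limma's test. A2M, a broad protease inhibitor, stood at 0.63, 0.31, 0.74, 0.57 and 0.12 in the rich follicles and at -0.082, -0.59, -0.15, -0.25 and -0.72 in the poor follicles. The groups did not overlap, and the difference was 0.83 ± 0.16 (limma, adjusted p = 0.0348; mixed model on IGHG1, adjusted p = 0.0286). Its 2 features, with differences of 1.48 and 0.18, were both numbered 21 to 24. C7, a part of the membrane attack complex, differed by 0.71 ± 0.16 (limma, adjusted p = 0.0609) and C1R, a protease of the first complement component, by 0.30 ± 0.080 (adjusted p = 0.0903), both without overlap. C7 rests on 1 feature numbered 21 to 24, and C1R gave 0.25 from 1 such feature and 0.34 from 1 numbered 1 to 20. Of 21 members 16 were above 0 with a median of 0.16. Limma and the mixed model on IGHG1 each called A2M alone, and 9 were higher and 1 lower at an unadjusted p under 0.05 by limma, where 9.15% of all genes were higher and 9.01% lower. The median was 0.26 over 14 genes with features numbered 1 to 20 and 0.15 over 12 with features numbered 21 to 24. The lists are not separate, since C1QA, C1QB and C1QC are on both the complement and the macrophage list. C1QB and C1QC count in both as higher at an unadjusted p under 0.05. CTSS is on both the macrophage and the class II list.

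The 12 genes with the largest called differences came from many functions. FMOD, a proteoglycan that binds collagen fibrils, stood at 1.15, 0.62, 0.65, 0.39 and 0.53 in the rich follicles and at -0.95, -0.076, -0.52, -1.05 and -0.51 in the poor follicles. No follicle overlapped, and the difference was 1.29 ± 0.24 (limma, adjusted p = 0.0313), from 1 feature numbered 21 to 24. AKR1C4, an aldo-keto reductase of steroid metabolism, stood at 0.60, 0.88, 0.083, 0.52 and 0.75 in the rich follicles and at -1.08, -0.019, -0.35, -0.60 and -1.03 in the poor follicles. Follicle 26 was the lowest rich and follicle 8 the highest poor one, with a narrow gap, and the difference was 1.18 ± 0.19 (limma, adjusted p = 0.024). On the IGHG1 level FMOD and AKR1C4 did not pass (mixed model, adjusted p = 0.0707 and 0.312). OGA, which removes GlcNAc from proteins, differed by 1.12 ± 0.23, PSMD7, a proteasome subunit, by 1.06 ± 0.15, and RAB25, an epithelial trafficking GTPase, by 1.04 ± 0.22. All 3 passed by limma (adjusted p between 0.0108 and 0.0499) and on the IGHG1 level (mixed model, adjusted p between 0.00394 and 0.00424), and each rests on 1 feature numbered 21 to 24. TPD52L2 (0.87 ± 0.16), of the tumor protein D52 family, also passed both tests on such a feature.

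MUSTN1 (1.02 ± 0.20), TMBIM1 (0.85 ± 0.16) and PAK2, a signalling kinase (0.77 ± 0.13), complete the 12 with CORO1A, A2M and BOLA-DRB3. AKR1C4, MUSTN1 and PAK2 rest on features numbered 1 to 20, among which alone none of the 3 passed (limma, adjusted p = 0.0524, 0.0793 and 0.0524). Each array averaged only the features with a value on it, so a gene's difference need not be the mean of its features' differences. The 2 features of TMBIM1 disagreed, 1 with a difference of 1.38 and the other with -0.42, and those of MUSTN1 gave 1.22 and -0.32. The same held for HERC2 (1.04 and -0.022), a ubiquitin ligase, and EPRS1 (1.36 and -0.18), a tRNA synthetase, which had the smallest p on the IGHG1 level (mixed model, adjusted p = 0.00271 for both). Between the groups EPRS1 was -0.17 without the array of 861 and C10, and HERC2 was -0.031 without that of 26 and J980. HERC2 and EPRS1, and the genes that follow up to ANXA2, were named after their values were seen. PSAP, the precursor of lysosomal lipid-degrading cofactors, stood at 0.67, 0.39, 0.17, 0.37 and 0.22 in the rich follicles and at -0.42, -0.21, -0.21, -0.34 and -0.54 in the poor follicles. It did not overlap and passed both tests, at 0.71 ± 0.098 (limma, adjusted p = 0.0108; mixed model, adjusted p = 0.004), from 2 features numbered 21 to 24. ARL6, a small GTPase of the cilium, also passed both (0.62 ± 0.090; limma, adjusted p = 0.0108; mixed model, adjusted p = 0.0101), from 1 feature numbered 21 to 24. TLR3, a sensor of double-stranded RNA (0.58 ± 0.12), PTGES, which makes prostaglandin E (0.41 ± 0.080), and MXRA8, a membrane protein of matrix-remodelling tissue (0.76 ± 0.14), passed by limma and not on the IGHG1 level. PTGES rests on 2 features numbered 21 to 24, and TLR3 and MXRA8 on features numbered 1 to 20. FSTL1, a secreted glycoprotein (1.16 ± 0.30), and ANXA2, a membrane-binding annexin (0.50 ± 0.11), passed on the IGHG1 level (mixed model, adjusted p = 0.00647 and 0.00975) and not by limma. Each of these rests on 1 feature numbered 21 to 24.

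Only 6 genes were lower in the rich follicles by limma. ATP5F1B, the catalytic subunit of ATP synthase, stood at -0.48, -0.24, -0.15, -0.33 and -0.22 in the rich follicles and at 0.52, 0.23, 0.097, 0.43 and 0.48 in the poor follicles. Every rich follicle was below every poor one, by 0.64 ± 0.13 on average (limma, adjusted p = 0.0367). HK1, the hexokinase that opens glycolysis, stood at -0.35, -0.25, 0.023, -0.27 and -0.59 in the rich follicles and at 0.27, 0.061, 0.22, 0.088 and 0.32 in the poor follicles. The gap between follicles 26 and 8 was small, and the difference was -0.48 ± 0.098 (limma, adjusted p = 0.0424). The others were PRADC1 (-0.44 ± 0.083), DNAI7 (-0.37 ± 0.064), ZBTB4, a zinc finger repressor (-0.36 ± 0.073), and CARNS1, which makes carnosine (-0.30 ± 0.060). None of the 6 passed on the IGHG1 level in the mixed model (adjusted p between 0.174 and 0.66), where ODC1, the first enzyme of polyamine synthesis, was the gene called lower (-0.24 ± 0.050, adjusted p = 0.0486). The next genes without overlap, which did not pass, were PSRC1 (-0.37), MICOS13 (-0.63), CIAPIN1 (-0.41), SPAG5 (-0.53), STX4 (-0.34) and WDR77 (-0.49). PSRC1 and SPAG5 encode proteins of the mitotic spindle and MICOS13 one of the mitochondrial inner membrane. Without the array of C26 and 33 the differences turned to 0.025 for CARNS1 and 0.63 for WDR77.

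More cell cycle genes were below 0 than above it, and limma called 0 of them. PLK1, a mitotic kinase, stood at -0.62, -0.33, -0.41, -0.14 and -0.20 in the rich follicles and at 0.54, -0.092, 0.55, 0.52 and 0.80 in the poor follicles. KIF20A, a kinesin of cell division, stood at -0.44, -0.22, -0.49, -0.43 and 0.13 in the rich follicles and at 0.39, 0.17, 0.54, 0.62 and 0.95 in the poor follicles. Neither overlapped, and the differences were -0.80 ± 0.22 and -0.82 ± 0.23 (limma, adjusted p = 0.0903 and 0.0914). Of 42 cell cycle genes 31 were below 0 with a median of -0.13. At an unadjusted p under 0.05, 10 were lower and 2 higher, where 9.01% of all genes were lower and 9.15% higher, and 7 did not overlap downward, where 2.71% of all genes did not. The mixed model on IGHG1 had 0 calls, with 8 lower and 1 higher at an unadjusted p under 0.05. Of all 9016 genes that model had 341 lower and 353 higher. Mitotic genes with values above 0 were KIF11, a spindle motor (0.69 ± 0.38), MKI67, a marker of dividing cells (0.19 ± 0.18), CCNB2, a mitotic cyclin (0.15 ± 0.15), and BUB1, a checkpoint kinase (0.12 ± 0.12), which did not pass and were named after their values were seen. KIF11 was -0.44 without the array of 33 and C12 and without that of C26 and 33. MKI67 was -0.36 and BUB1 -0.23 without the array of C10 and 26, and MKI67 was -0.10 without that of 33 and C13. CCND3, a cyclin of lymphoid and other cells that drives entry into the cycle, had the smallest p and was above 0 (0.60 ± 0.14; limma, adjusted p = 0.0763). The mean of the list was also -0.34 in J980, which is in neither group. Of 57 genes of oxidative phosphorylation 40 were below 0, the median was -0.069, and limma called ATP5F1B alone, with 10 lower and 2 higher at an unadjusted p under 0.05. UQCRQ, of the cytochrome bc complex, differed by -0.28 ± 0.067 and ATP5F1A, the alpha subunit beside ATP5F1B, by 0.36 ± 0.088, in the other direction, after 1 of its features had been set aside for its coefficient with IGHG1.

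Genes of matrix and stroma were above 0 more often than not, where 47.8% of all genes were, with 0 limma calls. Of 43 matrix genes 9 were higher and 2 lower at an unadjusted p under 0.05, where all genes had 9.15% higher and 9.01% lower. FBLN1, a matrix glycoprotein, stood at 0.46, 0.16, 0.31, 0.60 and 0.35 in the rich follicles and at -0.52, -0.47, 0.056, -0.68 and -0.29 in the poor follicles. The groups did not overlap, at 0.76 ± 0.18 (limma, adjusted p = 0.0763). COL6A1, a chain of collagen VI, differed by 0.49 ± 0.12, with 1.09 from 1 feature numbered 21 to 24 and 0.26 from 2 numbered 1 to 20. SPARCL1 differed by 0.46 ± 0.11 and COL3A1, a fibrillar collagen, by 0.20 ± 0.12. Of 43 matrix genes 34 were above 0 with a median of 0.14, which was 0.40 over 23 genes with features numbered 21 to 24 and 0.054 over 35 with features numbered 1 to 20. The smooth muscle and stroma list had a median of 0.15 over 17 genes, with 0 limma calls and 3 higher at an unadjusted p under 0.05, led by MYLK, myosin light chain kinase (0.34 ± 0.10), TPM2 (0.22 ± 0.079) and THY1 (0.21 ± 0.091). The endothelial list was centred at 0.0040 over 16 genes, with 0 limma calls and 3 higher and 2 lower at an unadjusted p under 0.05. Differences in this list ran from -0.37 (ESAM) to 0.91 (CLDN5). PECAM1, also an endothelial list member, is not among the 16. Its only feature, with a difference of 2.48, was set aside for its coefficient with IGHG1. The smallest p of the list pointed both ways, in PLVAP (-0.31), SELE (0.42) and EGFL7 (-0.29).

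Genes for folding and secreting protein, which plasma cells use heavily, had a median of 0.025 over 35 members, with 0 limma calls and 5 higher and 0 lower at an unadjusted p under 0.05, where all genes had 9.15% and 9.01%. Their members of smallest p were the chaperone DNAJB11 (0.54 ± 0.14; limma, adjusted p = 0.086), the disulfide isomerase PDIA4 (0.86 ± 0.26; adjusted p = 0.114) and the retrieval receptor KDELR2 (0.30 ± 0.11; adjusted p = 0.167). PDIA4 overlapped between the groups. In the cytokine list, with a median of -0.035 over 21 genes, 0 limma calls and 4 higher and 0 lower at an unadjusted p under 0.05, the smallest p belonged to IL33 (0.52 ± 0.14), TNF (0.79 ± 0.28) and CCL21, a lymphoid chemokine (0.30 ± 0.11). The apoptosis list had a median of -0.018 over 27 genes and 0 limma calls, 4 higher and 3 lower at an unadjusted p under 0.05, with MCL1 (-0.37), BAX (-0.23) and CASP1 (0.28) of smallest p.

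Granulosa and theca genes were not called apart from AKR1C4. CYP19A1, the aromatase that makes oestradiol, differed by -0.065 ± 0.060, and FSHR, the FSH receptor, by -0.10 ± 0.14. AMH, a hormone of smaller growing follicles, stood at -0.28, 0.32, -0.49, -0.55 and -0.39 in the rich follicles and at -0.26, 0.89, 0.92, -0.11 and 0.37 in the poor follicles. C32 lay above C13 and H893, the groups overlapped, and the difference of -0.64 ± 0.25 did not pass (limma, adjusted p = 0.204). INHBA and INHA, subunits of inhibin and activin, differed by -0.52 ± 0.49 and 0.35 ± 0.29, and FST, which binds activin, by -0.41 ± 0.40. HSD17B1 (-0.11), a granulosa steroid enzyme, and NR5A1 (-0.27), a regulator of steroid genes, completed the smallest p of a granulosa list of 21 genes with a median of -0.068, 0 limma calls and 0 higher and 2 lower at an unadjusted p under 0.05, where all genes had 9.15% and 9.01%. Of the theca and steroid list, CYP11A1, which cleaves cholesterol, differed by 0.014 ± 0.27 and HSD3B1, which makes progesterone, by 0.27 ± 0.16. Its median was 0.016 over 16 genes.

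**Figure D4:**
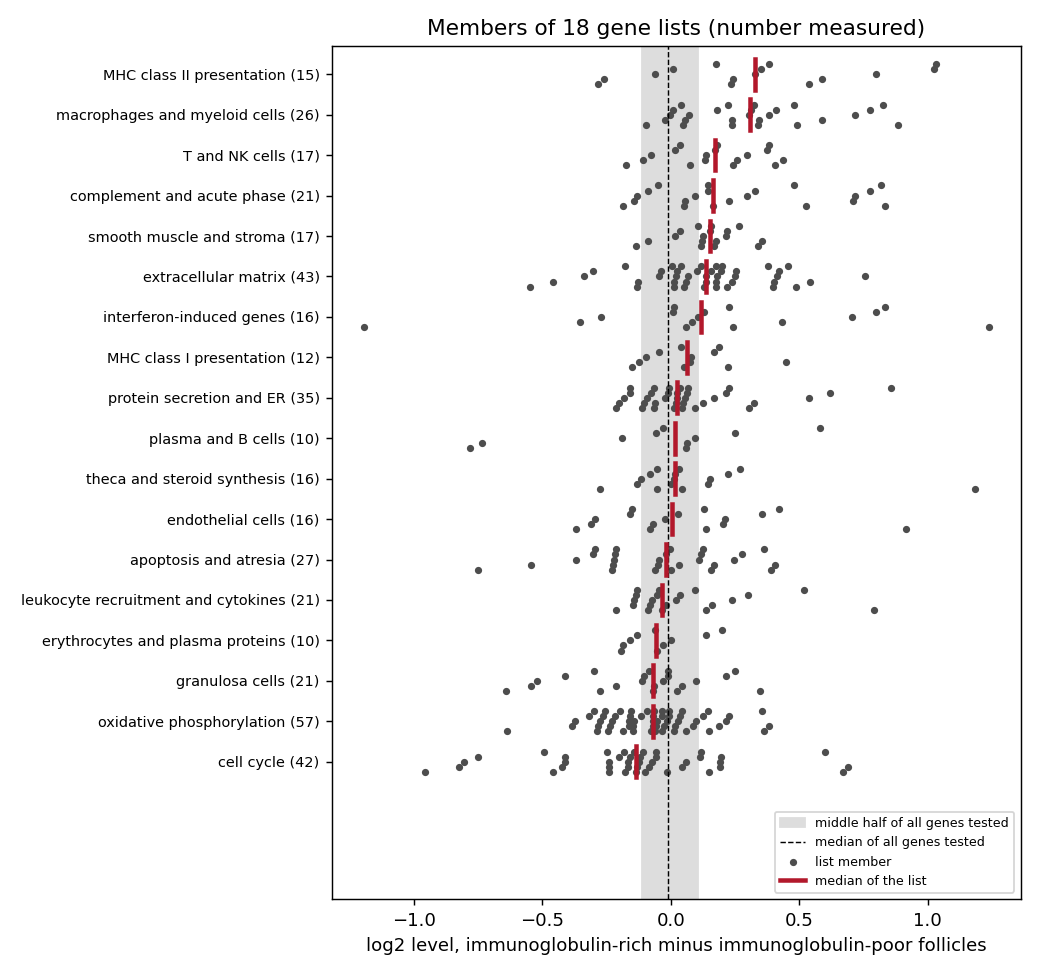
Difference in log2 level, immunoglobulin-rich minus immunoglobulin-poor follicles (horizontal axis), of each measured member of 18 gene lists (points), with each list's median (red line) beside the median and the quartile range of all 9016 genes (dashed line and grey band). The class II and macrophage lists have the highest medians, 0.33 and 0.31, and the cell cycle list the lowest, -0.13, where all genes have -0.0088.

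Interferon-induced genes varied widely within each group. ISG15, a ubiquitin-like modifier, stood at 0.88, -0.14, -1.13, 1.58 and -1.09 in the rich follicles and at -0.26, -0.57, -1.41, -0.049 and -1.13 in the poor follicles. MX1, an antiviral GTPase, stood at 1.37, 0.067, -1.53, 1.80 and -1.24 in the rich follicles and at -0.60, -0.97, -1.34, -0.050 and -0.75 in the poor follicles. Within the rich group both were high in C26 and 33 and low in 26 and 27. The groups overlapped, and neither difference passed (0.70 ± 0.79 and 0.83 ± 0.77; limma, adjusted p = 0.653 and 0.577). CXCR4, a chemokine receptor, was also highest in 33 within the rich group and lowest in 27 (0.41 ± 0.46). OAS1X (-0.35), UBE2L6 (0.43) and XAF1 (0.24) had the smallest p of a list of 16 with a median of 0.12 and 0 limma calls. Of the 16, 13 were above 0, where 47.8% of all genes were. At an unadjusted p under 0.05, 0 were higher and 1 lower, where all genes had 9.15% and 9.01%. Transcripts of red blood cells and of plasma proteins gave no call. HBB, a haemoglobin chain, differed by -0.13 ± 0.14, the haemoglobin chaperone AHSP by -0.16 ± 0.12, ALB, serum albumin, by -0.19 ± 0.077 and AMBP, a plasma protein, by 0.20 ± 0.13. The list of 10 such genes had a median of -0.057, 3 genes above 0 and 0 calls by limma, with 0 higher and 1 lower at an unadjusted p under 0.05.

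Differences among the 16 follicles beyond array error, tested without the IGHG1 order by limma's F test on the arrays, passed for 986 genes (10.9%). Among them were 17 of the 38 genes called between the groups and 27 of the 44 called on the IGHG1 level. BOLA-DRB3, BOLA-DRA, CORO1A, LAPTM5 and A2M passed, with adjusted p of 0.00147, 0.000411, 0.0124, 0.0139 and 0.000596. AKR1C4, HK1 and CD79A did not, with 0.13, 0.0782 and 0.553.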

How the data were processed

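Total RNA of bovine follicles was labelled with Cy5 or Cy3 and hybridised in pairs, and images were measured in GenePix Pro 4.0.1.12, per the labels' descriptions. The deposited values were taken as log2 ratios made by the authors. They reach 6.32 in size, where logarithms of base 10 would stop at 4.82 for 16-bit intensities, so natural logs remain possible. Background correction, spot filter and normalization: not given in the sources used here. Of 17418 features, 13605 had 1 gene symbol from the platform annotation, 829 several and 2984 none; 13575 were matched to RefSeq by gene ID. Unused columns of per-sample values numbered 0. The number of arrays limits the precision.

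Array medians were set to 0, and on each array the features that shared a symbol and had a value were averaged. Genes on at least 20 arrays were fitted with follicle effects and a dye term. Follicle levels of the 3 groups were tested with limma 3.58.1 in R 4.3.3. Mixed models (REML, random follicle, no moderation) on the arrays, and fits by the second identifier number, were added after seeing the data. Follicle levels were tested as 1 value per animal. The scripts were tested on simulated data. The groups and the 18 gene lists were chosen with earlier results of these data known, and 1 list member (TCRA) was added in the array's spelling. Named were the 12 highest and lowest called genes per direction (filled by non-overlapping genes of smallest p), the 3 members of smallest p per list, and fixed genes of follicle biology. Alternatives changed centring, scaling, filters, dye term, moderation, feature choice, group size, ranking gene and the follicles or arrays included. Plots used matplotlib 3.10.9 (Python 3.11.15).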

Additional observations from a re-analysis of the deposited data

Results flagged for a closer look

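Values that stood apart within their group of 5 by Dixon's criterion (0.71) were 6 of 220 tested, 2.73%, where chance gives about 1 in 20. KDELR2, a retrieval receptor of the endoplasmic reticulum, was at -0.47 in C13, with the nearest other poor follicle at -0.066. MICOS13 was at -0.052 in follicle 26, with the nearest other rich follicle at -0.37. PRDM1 was at 0.51 in C26, with the nearest other rich follicle at 0.0013. SELE, an adhesion protein of activated endothelium, was at 0.37 in follicle 8, with the nearest other poor follicle at -0.26. TLR3 was at -0.54 in H893, with the nearest other poor follicle at -0.24. ZAP70, a kinase of T cell signalling, was at 0.29 in C13, with the nearest other poor follicle at 0.077.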

How the results depend on the processing

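No paired analysis was possible because the labels give neither group, the replicate numbers only count the arrays of 1 follicle in accession order, and no more than 2 arrays hold a rich beside a poor follicle. Of 6731 differences of named genes recomputed under the alternatives, 5694 kept their direction and side of the threshold, 635 no longer passed, 307 passed in addition and 95 changed sign. The 635 all belong to named genes called in the main test, since only those could stop passing. ZBTB4 was called in 16 of 64 alternatives, HK1 in 24, CARNS1 in 27, and MUSTN1, TLR3 and PTGES in 30 each. RAB25 was called in 26 of 62. At the other end, PSAP was called in 58 of 64 and ARL6 in 52 of 63. In place of 32 genes higher and 6 lower, limma called 28 higher and 3 lower with arrays scaled to one spread, 47 higher and 15 lower among genes on all 24 arrays, 57 higher and 10 lower with 1 feature per gene, 123 higher and 84 lower with only the 10 follicles, 13 higher and 4 lower without moderation and 61 higher and 32 lower with array error only. It called 31 higher and 0 lower for groups of 4, 42 higher and 32 lower for groups of 6, 0 higher and 0 lower for groups of 8, 88 higher and 19 lower on the IGHG1 level, 458 higher and 439 lower for groups ranked by JCHAIN and 317 higher and 254 lower by IGHM. It called 19 higher and 3 lower with features set aside above a coefficient of 0.90, 51 higher and 11 lower with only genes of 1 feature set aside, 63 higher and 15 lower with none set aside, and 6 higher and 1 lower without J980 and its arrays (55 higher and 22 lower without its level alone). The cause of these changes was not tested. Not centring, no array minimum, no dye term and the median of features kept both counts within 1.5 times.

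The fits added after seeing the data called 0 higher and 0 lower in the mixed model with groups and 43 higher and 1 lower in the mixed model on IGHG1, 41 higher and 1 lower without J980 and 14 higher and 0 lower without C26. With features numbered 1 to 20 the counts were 0 higher and 0 lower by limma, 0 higher and 0 lower by the mixed model with groups and 1 higher and 0 lower on IGHG1. With features numbered 21 to 24 they were 78 higher and 14 lower, 0 higher and 0 lower and 71 higher and 3 lower. With arrays centred within each second number they were 9 higher and 1 lower by limma and 23 higher and 0 lower on IGHG1. Leaving out 1 array gave 2 to 101 genes higher, the fewest without the array of C10 and 26 and the most without that of 8 and C32, and 0 to 56 lower. Leaving out 1 follicle gave 0 to 130 higher, the fewest without C32 or 31 and the most without 8, and 0 to 74 lower. It gave 0 lower without C26, C32, 33, C13, 46, H893 or 31, each of which also left 5 or fewer higher. The F test among follicles called 614 genes without J980, 559 unmoderated and 560 with no dye term, in place of 986.

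Changes of sign were these. Without the dye term BLNK was 0.64 and CYP11A1 -0.012. With 1 feature per gene CD74 was -0.31, RFXANK -0.00135 and EPRS1 -0.18. Set aside above 0.90, TMBIM1 was -0.42, HERC2 -0.022 and EPRS1 -0.18. Without J980, TMBIM1 was -0.43 by limma and -0.091 on IGHG1. CYP11A1 was -0.19 for groups of 6, -0.16 for groups of 8, -0.099 on the IGHG1 level, -0.22 by JCHAIN, -0.18 by IGHM, -0.034 without J980, -0.0020 without it in the mixed model on IGHG1, and -0.073 and -0.084 with centring by second number. FSHR was 0.030 for groups of 4, 0.026 on the IGHG1 level, 0.11 by JCHAIN, 0.0080 in the mixed model on IGHG1 (the same from features numbered 1 to 20), 0.0075 without J980 and 0.019 with centring by second number. BUB1 was -0.11 with 1 feature per gene, -0.0079 for groups of 4, -0.063 in the mixed model on IGHG1 (the same from features numbered 1 to 20), -0.094 there without J980, -0.096 without C26 and -0.046 with centring by second number. MKI67 was -0.092 in the mixed model with groups (the same from features numbered 1 to 20) and -0.11 on IGHG1 without C26. SDC1 was 0.0045 for groups of 8 and 0.018 by IGHM. In the mixed model with groups MZB1 was -0.018 and PRDM1 -0.023 (both also from features numbered 1 to 20), and PRDM1 was -0.018 on IGHG1 without C26. By JCHAIN, CYP19A1 was 0.021. HBB was 0.037 in the mixed model with groups, 0.0023 on IGHG1 (both also from features numbered 1 to 20) and 0.030 there with centring by second number. MCL1 was 0.059 in the mixed model with groups from features numbered 21 to 24. Leaving out 1 array or follicle changed the sign of AHSP -0.35 to 0.028, BAX -0.48 to 0.034, BOLA-DOA -0.65 to 0.073, BUB1 -0.23 to 0.44, CARNS1 -0.65 to 0.025, CD22 -0.43 to 0.042, CD38 -0.25 to 1.47, CD79A -1.48 to 0.080, CXCR4 -0.089 to 0.88, CYP11A1 -0.27 to 0.28, CYP19A1 -0.23 to 0.11, EPRS1 -0.17 to 0.72, FSHR -0.26 to 0.040, HBB -0.39 to 0.14, HERC2 -0.031 to 0.57, HSD17B1 -0.35 to 0.11, KIF11 -0.44 to 1.91, MKI67 -0.36 to 0.71, MZB1 -0.037 to 0.15, PRDM1 -0.070 to 0.18, PSME1 -0.16 to 0.59, SDC1 -0.056 to 0.0020, SELE -0.057 to 0.92, THY1 -0.043 to 0.48 and WDR77 -1.68 to 0.63. Signal over background is unknown, and the 16 follicles limit the precision.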
